A study of Homo sapiens with 9 samples.

Results

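The amino acid solute carriers are 59 protein-coding genes, chosen by symbol as the numbered members of the SLC1A, SLC3A, SLC6A, SLC7A, SLC36A, SLC38A and SLC43A series among the 60660 genes of a count matrix. Of these, 37 held enough counts to be tested, among 17794 genes tested in all. The matrix came from RNA-seq of OVCAR3, an epithelial ovarian cancer cell line derived from a high-grade serous tumour, with 3 Control, 3 CTCFL-OE and 3 CTCFL-KD libraries. *CTCFL*, also named *BORIS*, encodes a germline paralog of the DNA-binding factor CTCF. CTCFL-OE cells were transiently transfected overnight with 2 µg of the plasmid pCpGfree-vitroHBORIS, which carries the *CTCFL* open reading frame, and were collected 48 h later. Control cells carry no *CTCFL* treatment in the labels and, by the study's methods, received the LacZ version of that plasmid. In CTCFL-KD cells *CTCFL* was lowered with siRNAs, and their RNA came from earlier knockdown experiments. All groups are the same cell line, grown in RPMI-1640 medium to which 20% serum and insulin at 0.01 mg/ml were added, and each biological replicate pooled 3 technical replicates. Since no library of cells with a control siRNA was used here, the effect of lower *CTCFL* cannot be told apart from that of the siRNA transfection and of the separate experiment.

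Total counts ranged from 14332622 to 24490080 per library. *CTCFL* itself had counts of 6, 9 and 10 in Control, 36, 34 and 72 in CTCFL-OE cells and 0, 1 and 0 in CTCFL-KD cells, in the direction of the labels. The 10 epithelial and ovarian carcinoma markers, among them *EPCAM*, *PAX8* and *KRT8*, were detected in every group. Their summed level was between 5940 and 6064 CPM in Control, but 5009 to 5524 with CTCFL-OE and 9913 to 16858 with CTCFL-KD. In CTCFL-KD 5 of them were higher and *KRT7* lower by the test used below, and *WT1* was below Control in all 3 libraries without reaching the fold threshold. The 10 fibroblast markers summed to 28.7 to 34.0, 25.6 to 44.9 and 38.1 to 43.7 CPM in the same order, with *COL1A2*, *COL3A1* and *DCN* at 0 in Control. Of the 5 fibroblast markers tested, 2 were higher in CTCFL-KD. *COL1A2* had no count in Control, 1, 2 and 0 in CTCFL-OE cells and 156, 239 and 247 in CTCFL-KD cells, and *POSTN* went from 0.131 to 0.863 CPM, while *COL1A1* made up most of the sum and had 29.7 CPM in Control and 23.2 in CTCFL-KD. The 5 leukocyte markers summed to 0.550 to 0.970, 0.865 to 1.78 and 2.90 to 4.68 CPM, with *CD3E* at 0 in Control. CPM scales counts to the TMM-adjusted library size. Mitochondrial genes took 6.16% to 6.52% of the counts in Control, 7.40%, 12.4% and 14.9% in CTCFL-OE replicates 1, 2 and 3, and 7.80% to 11.8% in CTCFL-KD. CTCFL-KD replicate 1 stood apart, with the lowest total, a TMM factor of 0.775 and counts that fell with transcript length relative to the other libraries of its group (Spearman's rho of −0.51 across 17736 genes). The same measure was 0.44 and 0.47 in CTCFL-KD replicates 2 and 3, each set against a mean that includes replicate 1, and between −0.24 and 0.19 in the other 6 libraries. The part of these marker, depth and quality values in the results below was not tested.

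Amino acid carriers move amino acids, and for some members related amines, creatine or taurine, across the plasma membrane and the membranes of lysosomes. The SLC7A light chains mostly work as exchangers bound to a heavy chain, *SLC3A2* (the CD98 heavy chain) or *SLC3A1*. The glutamate carriers of SLC1A and the SLC6A members are driven by ion gradients, and some SLC36A members by protons. Many tumours use glutamine, leucine and cystine carriers to feed growth, and the factor ATF4 induces several of them when amino acids are scarce.

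Sequences of 3 kinds bear on these genes, all on GRCh38 and written in the 5′ to 3′ direction. The first is the CTCFL binding site that the study predicted for *SLC7A8*, shown because *SLC7A8* was a DEG in both comparisons with Control. Within 50 bases on each side of the listed position, its 10 bases were found on the plus strand at chr14:23125571-23125580, in the 3′ UTR of the canonical transcript of this minus-strand gene. The site lies 58080 bases downstream of the canonical start site, 276 bases from the gene's 3′ end and 4563 bases from the nearest annotated transcript start. The site is in capitals between 10 bases of flank on each side.
SLC7A8 site: gtcccctgacCCTCCAGGGGccaaccccag

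The second set is the promoter windows, from 250 bases before to 50 after a RefSeq start site, of *SLC1A6*, which held the most motif matches of 1 kind, and of *SLC1A4* and *SLC1A5*, the DEGs with a composite element. Such windows were found for 44 of the 59 members, 66 windows in all. The letters AGGGGGC, the core of the CTCF motif, were searched on both strands, as were TGATGNAA, the ATF4 and C/EBP composite element, and matches are in capitals. The *SLC1A6* window, chr19:14979815-14980114 on the minus strand, held 3 CTCF core matches, the most of any member window, and its window at another start site held none. The *SLC1A4* window, chr2:64989149-64989448 on the plus strand, held 2 CTCF core matches and 1 composite element in reverse orientation. Its window at another start site held neither. The *SLC1A5* window, chr19:46784765-46785064 on the minus strand, held 1 composite element. This window lies within the gene rather than at its 5′ end, and the gene's windows at other start sites held no composite element. Among the windows not printed, those of DEGs with CTCF core matches were the *SLC7A10* window, with 2, and a window of *SLC1A5* at another start site, with 1.
SLC1A6 promoter: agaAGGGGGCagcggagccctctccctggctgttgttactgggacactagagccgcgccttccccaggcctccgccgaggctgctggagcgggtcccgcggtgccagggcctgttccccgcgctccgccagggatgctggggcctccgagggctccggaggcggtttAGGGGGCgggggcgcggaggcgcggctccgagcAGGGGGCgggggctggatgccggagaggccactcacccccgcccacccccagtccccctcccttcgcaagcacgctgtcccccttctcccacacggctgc
SLC1A4 promoter: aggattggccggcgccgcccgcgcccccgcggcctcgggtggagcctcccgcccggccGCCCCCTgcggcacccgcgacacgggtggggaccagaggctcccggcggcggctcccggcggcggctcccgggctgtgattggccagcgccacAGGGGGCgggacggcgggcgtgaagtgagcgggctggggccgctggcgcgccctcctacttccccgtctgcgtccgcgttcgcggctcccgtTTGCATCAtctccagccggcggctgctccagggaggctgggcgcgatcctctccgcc
SLC1A5 promoter: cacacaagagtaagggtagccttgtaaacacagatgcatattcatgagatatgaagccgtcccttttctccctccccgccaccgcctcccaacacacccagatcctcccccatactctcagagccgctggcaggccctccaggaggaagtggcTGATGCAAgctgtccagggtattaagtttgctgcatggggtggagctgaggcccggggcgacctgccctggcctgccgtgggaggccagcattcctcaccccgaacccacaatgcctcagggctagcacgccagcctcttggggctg

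The third set is the composite elements of the remaining members whose windows held one, with up to 8 bases of flank on each side.
SLC3A2 element: aggactccTTACATCAgctcc
SLC7A1 element: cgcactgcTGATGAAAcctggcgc
SLC38A1 element: gacccgaaTGATGAAAagggatca
SLC1A3 element: gaaatgacTGATGCAAagcagggt

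The composite element occurred in 6 of the 66 member windows, or 9.09%, against 3.63% of 34796 windows of all genes. The CTCF core letters occurred in 12 of 66, or 18.2%, against 14.3% of all windows. Neither occurred in the windows of *SLC7A8*, *SLC38A4* or *SLC6A9*, which says only that these letters were not there.

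In Control, a few carriers made up most of the group's RNA. The 59 members summed to 2349, 2397 and 2478 CPM in the 3 Control libraries. The glutamine and neutral amino acid carrier *SLC38A1* took 29.1% of this sum on average, its relative *SLC38A2* 16.9%, the leucine carrier *SLC7A5* 16.9% and the heavy chain *SLC3A2* 10.1%. Per kb of canonical transcript, the highest Control levels were those of *SLC3A2* (129 CPM per kb), *SLC7A5* (89.4), *SLC38A1* (86.7), *SLC38A2* (85.0) and the glutamine exchanger *SLC1A5* (38.2). Next came the creatine carrier *SLC6A8* (30.8 CPM per kb), the glutamate carrier *SLC1A3* (17.2), *SLC38A10* (13.4), the arginine and lysine carrier *SLC7A1* (12.1) and the lysosomal arginine sensor *SLC38A9* (9.57). Each of these levels is a mean of 3 libraries. *SLC7A5*, *SLC38A1* and *SLC38A2* lay close together and within about the spread of their libraries, and *SLC3A2* was above them in each.

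**Figure D1:**
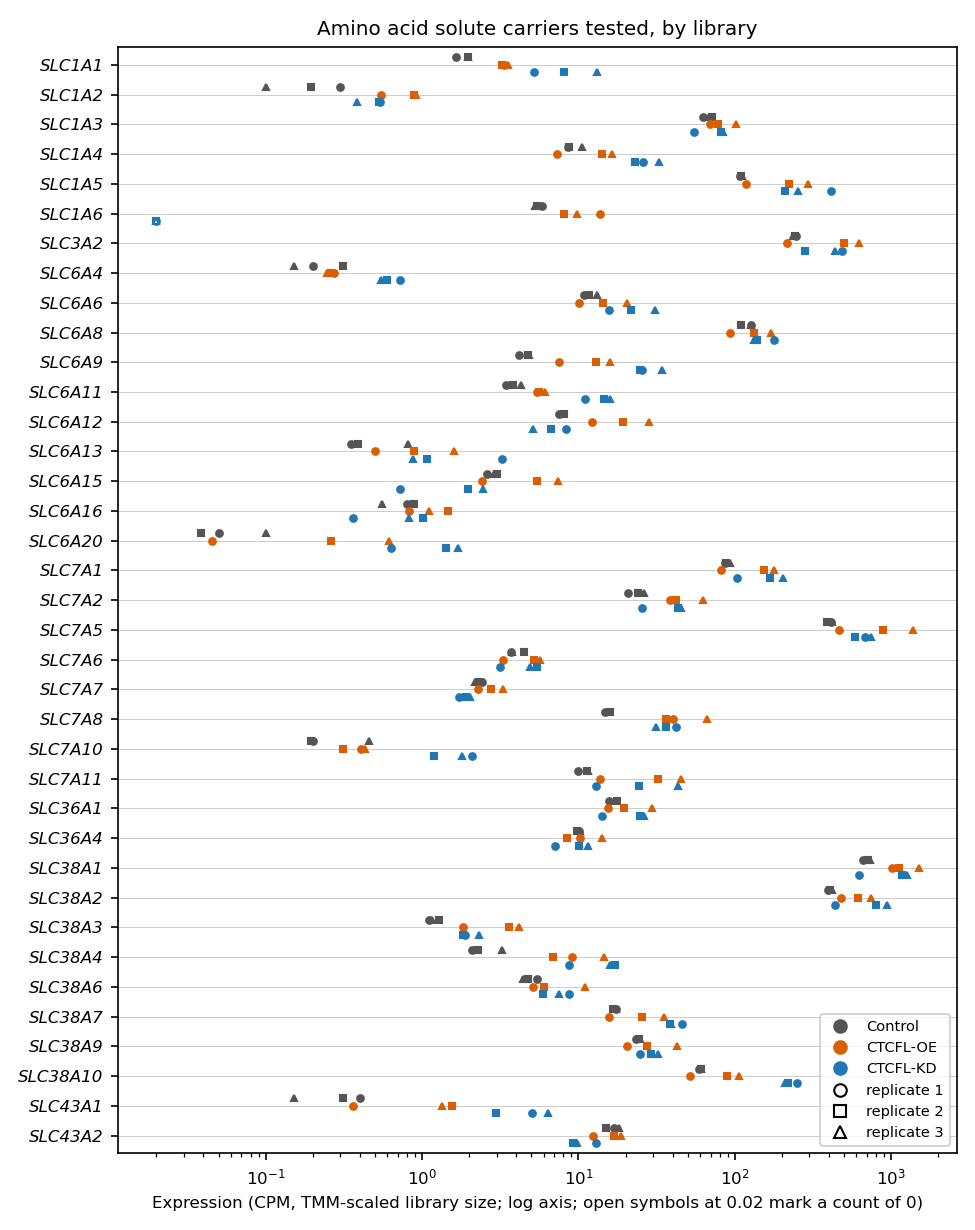
Expression in CPM on a log axis of the 37 tested carriers, 1 row per gene, with colours for Control, CTCFL-OE and CTCFL-KD and a symbol for each of the 3 replicates. *SLC38A1*, *SLC7A5*, *SLC38A2* and *SLC3A2* sit at the right, and the 3 CTCFL-KD libraries of *SLC1A6* sit at a count of 0.

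The group's summed level was 2830, 4129 and 5578 CPM in CTCFL-OE cells and 3537, 4017 and 4681 in CTCFL-KD cells. Every library of both groups lay above the highest Control library, 2478 CPM. The abundant *SLC38A1*, *SLC38A2*, *SLC7A5* and *SLC3A2* made up most of each sum, and none of them was a DEG against Control. The mean sums were 2408 ± 65.4 CPM in Control, 4179 ± 1375 in CTCFL-OE cells and 4078 ± 574 in CTCFL-KD (SD, n = 3). In bulk RNA, a change in the RNA per cell and a change in the share of cells that express a gene cannot be told apart. The 3 CTCFL-OE libraries did not contribute alike. CTCFL-OE replicate 3 was the highest of its group for 33 of the 37 tested members, or 89.2%, against 31.8% of all genes tested. CTCFL-OE replicate 1 was the lowest for 30 members, or 81.1%, against 40.0% of all genes. In the same libraries *CTCFL* was highest in replicate 3, and the mitochondrial share was lowest in replicate 1 and highest in replicate 3.

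Against Control, 7 of the 37 tested members were DEGs in CTCFL-OE, all higher, and 0 were lower. DEGs were genes whose log2 fold change exceeded 1 in size with an adjusted p below 0.1, from the quasi-likelihood test of edgeR with p-values adjusted by Benjamini-Hochberg over all genes. Over all genes tested, 2.07% were DEGs in CTCFL-OE, 1.37% higher and 0.702% lower. The members' median log2 fold change was 0.62, against −0.01 over all genes, and 36 of 37 were above 0. For 15 members each CTCFL-OE library exceeded each Control library, as it did for 16.3% of all genes. These calls depended on single libraries. Leaving out Control replicate 1, 2 or 3 gave 0, 1 and 0 DEGs among the members, with 45, 61 and 44 among all genes in place of 368, and leaving out CTCFL-OE replicate 2 or 3 gave 2 and 1, with 79 and 109 among all genes. Without CTCFL-OE replicate 1 there were 14, with 1184 (6.45%) among all genes, and without CTCFL-KD replicate 1, which enters through the shared estimate of the spread, 11, with 981 (5.33%).

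In CTCFL-KD, 16 of the 37 were DEGs, 15 higher and 1 lower, with the adjusted p below 0.05. Over all genes, 23.2% were DEGs in this comparison, 15.3% higher and 7.94% lower. The members' median log2 fold change was 0.83, with *SLC1A6* at its fitted value or at its bound given below, against 0.08 over all genes, and 31 of 37 were above 0. All 3 CTCFL-KD libraries lay above Control for 25 members and below it for 4, where 28.7% and 27.6% of all genes did so. The count stayed between 14 and 19 when any 1 library was left out, and 19.9% to 24.7% of all genes were DEGs in those fits. Both comparisons used the same 3 Control libraries, so their values for a gene share that part. The members that were DEGs in both were *SLC7A8*, *SLC38A4* and *SLC6A9*, 3 of 37, while 1.28% of all genes were in both lists. CTCFL-KD and CTCFL-OE were also compared with each other in the same fit, and 12 members were DEGs, 9 higher and 3 lower in CTCFL-KD. Over all genes, 17.0% were DEGs there, 10.6% higher and 6.42% lower.

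**Figure D2:**
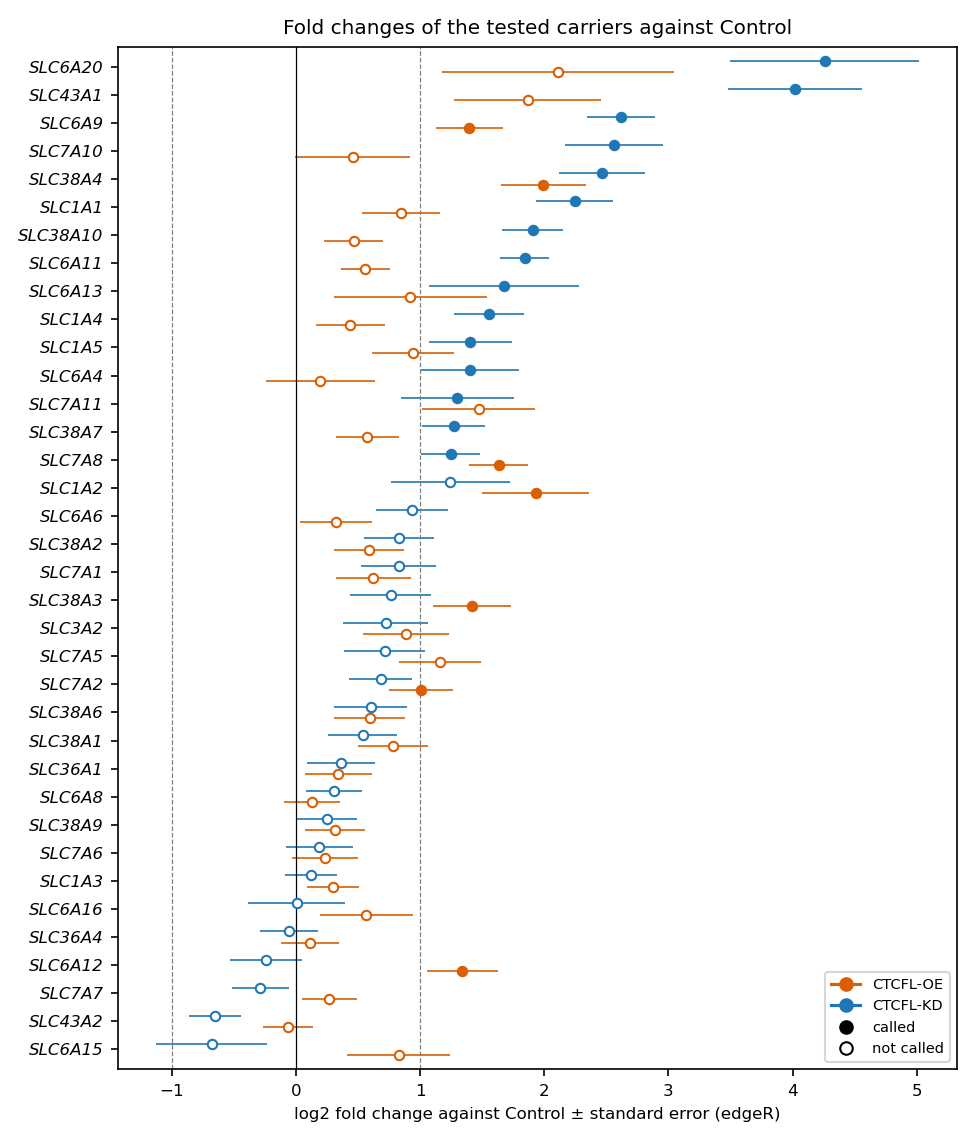
Log2 fold change against Control with its standard error from edgeR for 36 tested carriers, ordered by the value in CTCFL-KD, with filled symbols for DEGs and dashed lines at log2 fold changes of −1 and 1. *SLC1A6*, with no counts in CTCFL-KD, is left out. The CTCFL-OE values lie right of 0 for all members shown but *SLC43A2*.

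*SLC7A8*, *SLC38A4* and *SLC6A9* were higher in both altered groups. *SLC7A8* (ENSG00000092068.20, chr14:23125295-23183674, minus strand) encodes LAT2, a light chain that exchanges neutral amino acids at the plasma membrane. It had counts of 296, 409 and 302 in Control, 886, 694 and 1079 in CTCFL-OE cells and 467, 608 and 569 in CTCFL-KD cells, or 14.8, 15.9 and 15.3 CPM, then 40.3, 36.2 and 66.2, then 42.1, 36.1 and 31.1. The lowest altered library was above 30 CPM and all Control libraries were under 16, so Control overlapped with neither group, and the altered groups overlapped with each other. The log2 fold change was 1.63 ± 0.24 (standard error) in CTCFL-OE (adjusted p = 0.0116) and 1.25 ± 0.24 in CTCFL-KD (adjusted p = 0.00221). Between CTCFL-KD and CTCFL-OE it was −0.39 ± 0.23 (adjusted p = 0.236). The CTCFL-OE value stayed between 1.315 and 1.79 when any 1 library of the comparison was left out, and its adjusted p passed 0.1 without Control replicate 1 or 3, at most 0.105. The predicted CTCFL site printed above belongs to this gene, and no binding was measured in these files.

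*SLC38A4* (ENSG00000139209.16, chr12:46764761-46832408, minus strand) encodes the sodium-coupled neutral amino acid carrier SNAT4. It had 2.10, 2.29 and 3.24 CPM in Control, 9.11, 6.83 and 14.5 in CTCFL-OE cells and 8.73, 17.1 and 16.0 in CTCFL-KD cells. Each altered library was above the 3 Control libraries, and the altered groups overlapped. Its log2 fold change was 1.99 ± 0.34 in CTCFL-OE (adjusted p = 0.0272) and 2.46 ± 0.35 in CTCFL-KD (adjusted p = 0.000382), and the difference of 0.47 ± 0.32 between these groups did not pass the test (adjusted p = 0.296). In CTCFL-OE the call was lost without any 1 Control library or CTCFL-OE replicate 3, with an adjusted p of up to 0.171.

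*SLC6A9* (ENSG00000196517.13, chr1:43991500-44031467, minus strand) encodes the glycine carrier GlyT1. It had 4.15, 4.77 and 4.85 CPM in Control, 7.56, 13.0 and 15.9 in CTCFL-OE cells and 25.7, 24.7 and 34.2 in CTCFL-KD cells. The 3 groups did not overlap, with CTCFL-OE between the others. By the test, the log2 fold change was 1.40 ± 0.27 in CTCFL-OE (adjusted p = 0.0386) and 2.62 ± 0.27 in CTCFL-KD (adjusted p = 5.9e-05), and CTCFL-KD was above CTCFL-OE by 1.22 ± 0.26 (adjusted p = 0.00589). The CTCFL-OE call was lost without any 1 Control library or CTCFL-OE replicate 2 or 3 (adjusted p of up to 0.212), and the difference between CTCFL-KD and CTCFL-OE fell to 0.96 without CTCFL-OE replicate 1. An exon of *SLC6A9* overlaps *CCDC24* on the opposite strand, which had 151 to 279 counts per library. The strand setting of the counting is not given in the sources used here, so the 2 genes' reads may not be fully separated.

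*SLC1A6* was the only tested member that was a DEG lower in CTCFL-KD. It encodes EAAT4, a glutamate carrier known from cerebellar Purkinje cells (ENSG00000105143.12, chr19:14950033-15022990, minus strand). It had counts of 117, 140 and 105 in Control, 301, 154 and 160 in CTCFL-OE cells and 0, 0 and 0 in CTCFL-KD cells. CTCFL-OE lay above Control in all libraries, and no read was counted in CTCFL-KD. A count of 0 allows up to 3 counts per library, so its CTCFL-KD level lay at least 27.1-fold lower than that of Control (adjusted p = 1.35e-05) and at least 51.5-fold lower than in CTCFL-OE (adjusted p = 1.4e-05). In CTCFL-OE it had 13.7, 8.03 and 9.82 CPM against 5.85, 5.43 and 5.31 in Control, a log2 fold change of 0.93 ± 0.24 that did not pass the thresholds (adjusted p = 0.11). The lower level in CTCFL-KD was called in each fit that tested the gene, and a filter of at least 10 counts in every library removed it. Its promoter window above held 3 CTCF core matches, and its window at another start site held none. The other CTCFL-KD DEGs with such matches in a window, *SLC1A4*, *SLC1A5* and *SLC7A10*, were higher there. No binding was measured in these files, and a link between the matches and these levels was not tested.

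**Figure D3:**
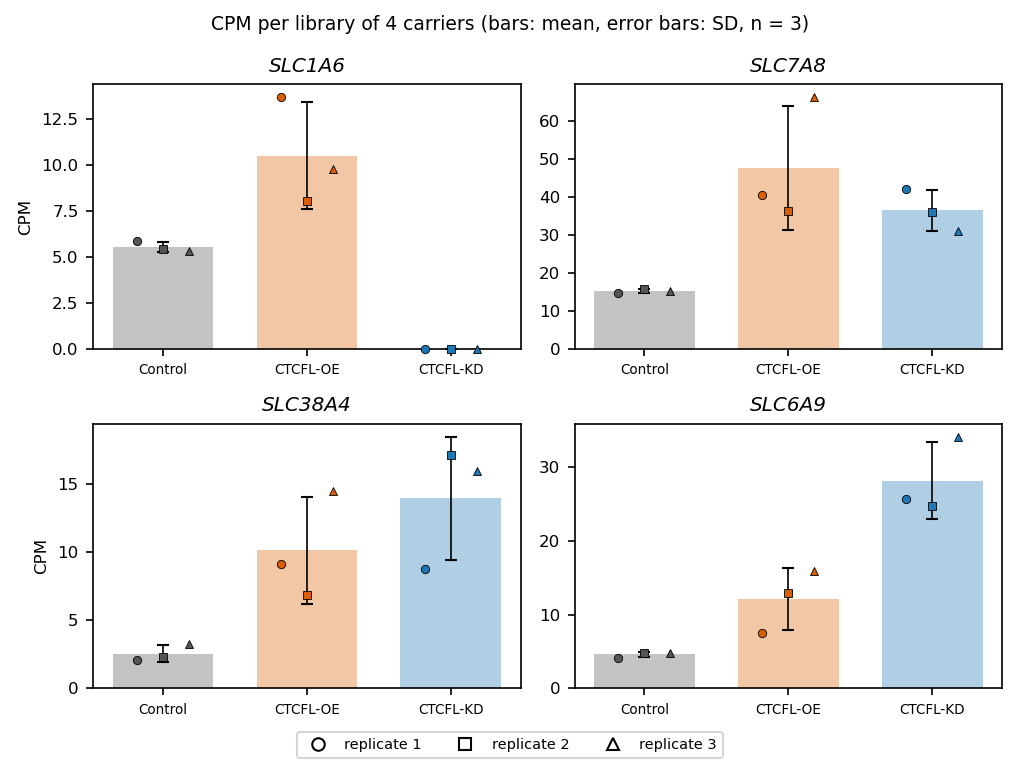
CPM in each library of *SLC1A6*, *SLC7A8*, *SLC38A4* and *SLC6A9*, with bars for the mean, error bars for the SD and symbols for replicates 1, 2 and 3. *SLC1A6* is at 0 in all CTCFL-KD libraries, and the other genes have both altered groups above Control.

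Among the other glutamate carriers, *SLC1A1* rose in CTCFL-KD. This gene encodes EAAT3, which takes up glutamate and cysteine. It had 1.65, 1.98 and 1.97 CPM in Control, 3.32, 3.23 and 3.56 in CTCFL-OE cells and 5.22, 8.13 and 13.1 in CTCFL-KD cells. The groups did not overlap. Its log2 fold change was 2.24 ± 0.31 in CTCFL-KD (adjusted p = 0.000348), and 0.85 ± 0.31 in CTCFL-OE did not pass (adjusted p = 0.2). *SLC1A2*, the main glial glutamate carrier, rested on few reads, with counts of 6, 5 and 2 in Control, 12, 17 and 15 in CTCFL-OE cells and 6, 9 and 7 in CTCFL-KD cells. All CTCFL-OE libraries were above Control, with a log2 fold change of 1.93 ± 0.43 (adjusted p = 0.0607). That call was lost without any 1 Control library or CTCFL-OE replicate 2 or 3, and with the replicate number as a block (adjusted p = 0.101). The CTCFL-KD value of 1.24 ± 0.48 did not pass (adjusted p = 0.0597). *SLC1A3*, the glutamate carrier EAAT1 and the most abundant of the glutamate carriers, had 63.0, 71.0 and 68.6 CPM in Control, 69.4, 78.2 and 101 in CTCFL-OE cells and 54.8, 81.3 and 84.4 in CTCFL-KD cells. Both groups overlapped with Control, and neither passed the test (log2 fold changes of 0.30 ± 0.21 and 0.12 ± 0.21).

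The neutral amino acid exchangers of the same family rose in CTCFL-KD. Both have a window with a composite element, while *SLC1A3*, *SLC3A2*, *SLC7A1* and *SLC38A1*, the other members with one, were no DEGs there. A link between the element and these levels was not tested. *SLC1A4* encodes ASCT1, an exchanger of alanine, serine, cysteine and threonine. It had 8.55, 8.69 and 10.6 CPM in Control, 7.24, 14.2 and 16.3 in CTCFL-OE cells and 25.8, 23.0 and 32.9 in CTCFL-KD cells. CTCFL-OE overlapped with Control and CTCFL-KD lay above both, and its log2 fold changes were 1.55 ± 0.28 (adjusted p = 0.00175) in CTCFL-KD and 0.44 ± 0.28 (adjusted p = 0.436) in CTCFL-OE. *SLC1A5* encodes ASCT2, a main glutamine entry route in many tumours. It had 108, 110 and 112 CPM in Control, 118, 223 and 294 in CTCFL-OE cells and 411, 211 and 254 in CTCFL-KD cells. All altered libraries were above Control, with CTCFL-OE replicate 1 close to it and CTCFL-KD replicate 1 highest. Its log2 fold change was 1.41 ± 0.33 in CTCFL-KD (adjusted p = 0.00716), or 1.08 without CTCFL-KD replicate 1, and 0.94 ± 0.33 in CTCFL-OE (adjusted p = 0.176), or 1.22 without CTCFL-OE replicate 1, where it was a DEG.

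The CD98 heavy chain and its most abundant light chain were higher in most altered libraries and were no DEGs by the test defined above. *SLC3A2* had 247, 243 and 237 CPM in Control, 216, 503 and 625 in CTCFL-OE cells and 485, 279 and 436 in CTCFL-KD cells. CTCFL-OE replicate 1 was below every Control library and the other altered libraries were above them. Its log2 fold changes were 0.89 ± 0.35 (adjusted p = 0.218) and 0.72 ± 0.34 (adjusted p = 0.119), and without CTCFL-OE replicate 1 it was a DEG in CTCFL-OE (1.21, adjusted p = 0.0312). *SLC7A5*, the light chain LAT1 that brings in leucine and other large neutral amino acids, had 411, 391 and 420 CPM in Control, 461, 889 and 1388 in CTCFL-OE cells and 680, 588 and 738 in CTCFL-KD cells. Neither group overlapped with Control. Its log2 fold change of 1.16 ± 0.33 in CTCFL-OE had an adjusted p of 0.118, just past the threshold. It was a DEG there in 5 of 10 other settings, DESeq2 among them (adjusted p = 0.0143), and without CTCFL-OE replicate 1 (1.48) or CTCFL-KD replicate 1 (1.17). The value of 0.72 ± 0.33 in CTCFL-KD had an adjusted p of 0.106. *SLC7A5* has near-identical pseudogene copies, so its counts depend on how shared reads were treated.

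*SLC7A11* encodes xCT, the light chain that imports cystine in exchange for glutamate. It had counts of 200, 291 and 229 in Control, 301, 619 and 741 in CTCFL-OE cells and 143, 411 and 791 in CTCFL-KD cells, with CPM of 30.5 ± 16 and 26.8 ± 15.3 in the altered groups (SD, n = 3). Both groups lay above Control and spread widely, with replicate 1 of each just above it. The log2 fold change of 1.30 ± 0.45 in CTCFL-KD was a DEG (adjusted p = 0.0435), but the call was lost without any 1 Control library, CTCFL-OE replicate 2, or CTCFL-KD replicate 2 or 3 (0.77 to 1.63 over the libraries of this comparison). The value of 1.47 ± 0.46 in CTCFL-OE did not pass (adjusted p = 0.14), and passed with DESeq2 (adjusted p = 0.0308) and with the replicate number as a block (adjusted p = 0.084).

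**Figure D4:**
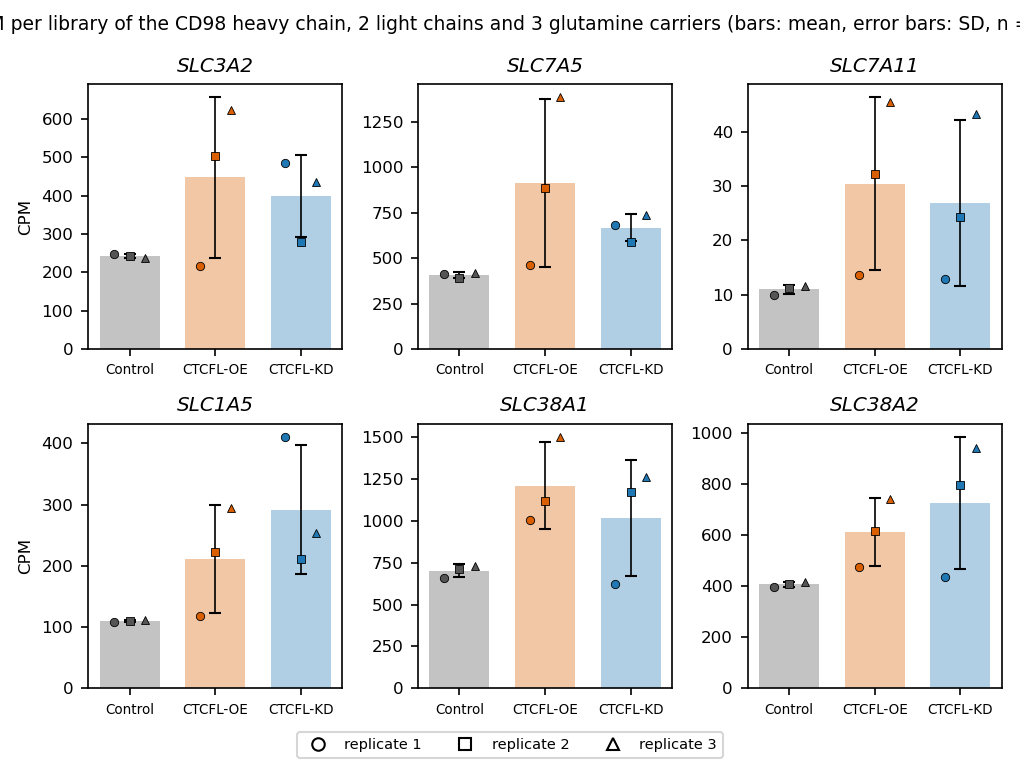
CPM in each library of *SLC3A2*, *SLC7A5*, *SLC7A11*, *SLC1A5*, *SLC38A1* and *SLC38A2*, with bars for the mean, error bars for the SD and symbols for replicates 1, 2 and 3. Control libraries lie close together, while the CTCFL-OE libraries spread from replicate 1, the lowest in all 6 panels, to replicate 3, the highest.

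The remaining light chains differed among themselves. *SLC7A10*, the exchanger Asc-1 for small neutral amino acids such as serine and glycine, had counts of 4, 5 and 9 in Control, 9, 6 and 7 in CTCFL-OE cells and 23, 20 and 33 in CTCFL-KD cells. Only CTCFL-KD stood clear of Control, with a log2 fold change of 2.56 ± 0.40 (adjusted p = 0.000676). Its exons overlap those of *LRP3* on the opposite strand, which had 496 to 572 counts in Control and CTCFL-OE and 870, 980 and 1182 in CTCFL-KD, so reads of *LRP3* may be among them. *SLC7A6* and *SLC7A7*, which exchange cationic for neutral amino acids, had 74 to 115 and 43 to 60 counts per Control library and no log2 fold change beyond 0.285 in size against Control. An exon of *SLC7A6* overlaps *SLC7A6OS* on the opposite strand, with 88, 100 and 67 counts in Control and 23, 48 and 67 in CTCFL-KD. Reads of *SLC7A6OS* may be among those of *SLC7A6*. *SLC7A9* and *SLC7A13*, partners of *SLC3A1*, had 0 to 5 and 0 to 1 counts per library, and *SLC3A1* itself 0 to 4, so none was tested.

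The cationic amino acid carriers do not need a heavy chain. *SLC7A2* had 20.9, 24.1 and 26.1 CPM in Control, 38.5, 42.2 and 62.6 in CTCFL-OE cells and 25.5, 43.5 and 45.0 in CTCFL-KD cells. CTCFL-OE lay above Control, and CTCFL-KD replicate 1 fell within it. Its log2 fold change of 1.01 ± 0.26 in CTCFL-OE (adjusted p = 0.0875) was at the edge of the fold threshold and was 0.99 with the replicate block, no longer a DEG, as also without CTCFL-KD replicate 2, any 1 Control library or CTCFL-OE replicate 2 or 3. *SLC7A1*, a ubiquitous arginine carrier, had 86.1, 88.1 and 93.2 CPM in Control, 81.6, 154 and 177 in CTCFL-OE cells and 103, 169 and 203 in CTCFL-KD cells. CTCFL-KD lay above Control, and its log2 fold change of 0.83 ± 0.30 did not pass (adjusted p = 0.0506), but did without CTCFL-KD replicate 1 (1.06).

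Of the SLC38A carriers, which take up glutamine and other neutral amino acids with sodium, the most abundant pair did not pass the thresholds. *SLC38A1* had 660, 715 and 732 CPM in Control, 1008, 1119 and 1504 in CTCFL-OE cells and 623, 1174 and 1261 in CTCFL-KD cells. CTCFL-OE lay above Control, and CTCFL-KD replicate 1 was below every Control library. Its log2 fold changes of 0.79 ± 0.28 and 0.54 ± 0.28 did not pass (adjusted p = 0.184 and 0.151). *SLC38A2*, known to be induced by amino acid shortage, had 397, 409 and 417 CPM in Control, 476, 617 and 744 in CTCFL-OE cells and 438, 798 and 943 in CTCFL-KD cells. All altered libraries were above Control. Its log2 fold change of 0.83 ± 0.28 in CTCFL-KD had an adjusted p of 0.0383, under the fold threshold. It was a DEG without CTCFL-KD replicate 1 (1.10) and with length and GC offsets (1.25, adjusted p = 0.000714), which also made *SLC7A2* a DEG in CTCFL-KD (1.02).

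*SLC38A3*, the glutamine carrier SNAT3, had 1.10, 1.28 and 1.16 CPM in Control, 1.82, 3.60 and 4.17 in CTCFL-OE cells and 1.89, 1.84 and 2.30 in CTCFL-KD cells. All altered libraries lay above Control, and the CTCFL-OE log2 fold change of 1.42 ± 0.31 was a DEG (adjusted p = 0.0587) that was lost without any 1 Control library or CTCFL-OE replicate 2 or 3. In CTCFL-KD the value was 0.77 ± 0.33 (adjusted p = 0.0857). A pair of relatives passed in CTCFL-KD but not in CTCFL-OE, each against Control. *SLC38A10*, a less well characterised member, had 58.7, 60.4 and 60.9 CPM in Control, 52.0, 89.7 and 107 in CTCFL-OE cells and 249, 218 and 209 in CTCFL-KD cells. The CTCFL-KD libraries were close together and far above the rest, with a log2 fold change of 1.91 ± 0.25 against Control (adjusted p = 0.000228) and 1.44 ± 0.24 against CTCFL-OE (adjusted p = 0.00161). *SLC38A7*, which exports glutamine from lysosomes, had 17.3, 16.6 and 17.4 CPM in Control, 15.7, 25.7 and 35.2 in CTCFL-OE cells and 46.2, 38.5 and 39.2 in CTCFL-KD cells. CTCFL-KD lay above both groups, and its log2 fold change was 1.27 ± 0.25 (adjusted p = 0.00305), but 0.70 against CTCFL-OE did not pass (adjusted p = 0.0626). The lysosomal arginine sensor *SLC38A9* had 24.1 ± 0.837, 30.1 ± 11.3 and 28.7 ± 3.67 CPM in Control, CTCFL-OE and CTCFL-KD cells (SD, n = 3) and passed neither test.

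Of the SLC6A carriers of GABA and related osmolytes, *SLC6A12* was a DEG in CTCFL-OE and *SLC6A11* and *SLC6A13* in CTCFL-KD. *SLC6A12*, the betaine and GABA carrier BGT1, had 7.55, 8.11 and 7.89 CPM in Control, 12.2, 19.3 and 28.2 in CTCFL-OE cells and 8.28, 6.71 and 5.09 in CTCFL-KD cells. CTCFL-OE lay above Control and CTCFL-KD overlapped with it. On the log2 scale the difference from Control was 1.34 ± 0.29 in CTCFL-OE (adjusted p = 0.055), lost without any 1 Control library or CTCFL-OE replicate 2 or 3, and −0.24 ± 0.29 in CTCFL-KD (adjusted p = 0.542). CTCFL-KD against CTCFL-OE gave −1.58 ± 0.29 (adjusted p = 0.00284), a DEG also in each fit that left out 1 library of these groups. *SLC6A11*, the GABA carrier GAT3, had counts of 69, 99 and 85 in Control, 120, 107 and 99 in CTCFL-OE cells and 122, 247 and 289 in CTCFL-KD cells, the last a mean of 13.8 ± 2.52 CPM against 3.86 ± 0.424 in Control (SD, n = 3). In CPM the groups did not overlap, and CTCFL-KD was a DEG against Control (1.84 ± 0.20, adjusted p = 6.73e-05) and against CTCFL-OE (1.28 ± 0.20, adjusted p = 0.000821).

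*SLC6A13*, the GABA carrier GAT2 next to *SLC6A12* on chromosome 12, had counts of 7, 10 and 16 in Control, 11, 17 and 26 in CTCFL-OE cells and 36, 18 and 16 in CTCFL-KD cells. CTCFL-KD replicate 1 was far above the rest. The log2 fold change of 1.68 ± 0.60 in CTCFL-KD (adjusted p = 0.048) was lost with the replicate block (adjusted p = 0.0599), without CTCFL-KD replicate 1 (0.93), and without Control replicate 1 or 2 or CTCFL-OE replicate 1 or 2. *SLC6A20*, the proline and imino acid carrier SIT1, was nearly silent in Control with counts of 1, 1 and 2, had 1, 5 and 10 in CTCFL-OE, and reached 7, 24 and 31 in CTCFL-KD. The CTCFL-KD mean was 1.25 ± 0.554 CPM (SD, n = 3) and the fitted log2 fold change 4.26 ± 0.76 (adjusted p = 0.00159), a size that depends on the few Control reads. The creatine carrier *SLC6A8* had 121 ± 9.85, 133 ± 38.4 and 150 ± 23.9 CPM in Control, CTCFL-OE and CTCFL-KD cells (SD, n = 3) and passed neither test.

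*SLC43A1*, the leucine carrier LAT3, was similarly low in Control, with counts of 8, 8 and 3, then 8, 30 and 22 in CTCFL-OE cells and 56, 50 and 116 in CTCFL-KD. All CTCFL-KD libraries were above the other 6. The log2 fold change in CTCFL-KD was 4.02 ± 0.54 against Control (adjusted p = 0.0003) and 2.15 ± 0.47 against CTCFL-OE (adjusted p = 0.00658). Its relative *SLC43A2*, chosen here after its values were seen, went the other way without reaching the fold threshold, at 16.9, 15.1 and 18.1 CPM in Control and 13.0, 9.26 and 9.79 in CTCFL-KD (−0.65 ± 0.21, adjusted p = 0.0296). *SLC6A4* and *SLC6A15*, outside the rule for named genes, complete the DEGs and were also chosen after their values were seen. The serotonin carrier *SLC6A4* had 3 to 8 counts in Control and 8 to 10 in CTCFL-KD (1.41 ± 0.39, adjusted p = 0.0164), and *SLC6A15*, a carrier of branched-chain amino acids and proline, was lower in CTCFL-KD than in CTCFL-OE (a difference of −1.504 ± 0.44, adjusted p = 0.0281). The call of *SLC6A15* was lost without CTCFL-OE replicate 2 or 3 or CTCFL-KD replicate 2, and that of *SLC6A4* in CTCFL-KD without Control replicate 1 or 3 and with DESeq2. The tested members not named so far are *SLC38A6*, *SLC6A6*, *SLC6A16*, *SLC36A1* and *SLC36A4*, with log2 fold changes between −0.06 and 0.93 against Control and no DEG. The highest was that of the taurine carrier *SLC6A6* in CTCFL-KD (adjusted p = 0.0266), a DEG without CTCFL-KD replicate 1 (1.14).

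The 22 untested members had at most 14 counts in any library. *SLC6A18*, *SLC36A2* and *SLC38A11* had no count in all 9 libraries, and 14 of the 22 had at most 10 counts summed over the 9. Among the tested and untested members, 24 have an exon overlapped by a gene on the opposite strand, 14 of them tested.

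Lists of related genes, 4 in all, were counted beside the carriers. Of the amino acid response genes, ATF4 targets and the kinases and factors around them, 20 were tested, 0 were DEGs in CTCFL-OE and 6 were higher in CTCFL-KD, or 30%, against 15.3% of all genes that were higher there. These were *PHGDH* and *PCK2* of serine and phosphoenolpyruvate synthesis, the asparagine synthetase *ASNS*, and the stress genes *DDIT3*, *DDIT4* and *CHAC1*, with log2 fold changes between 1.08 and 1.60. Of the 6, *PCK2* was a DEG in every fit that left out 1 library. The call of *DDIT4* was lost in 7 of the 9 such fits, and its value was 0.35 without CTCFL-KD replicate 3, where it had 60.4 CPM against 20.7 and 17.5 in the other two. *ASNS* lost its call without that library (0.94) or Control replicate 2 or 3, *PHGDH* without CTCFL-KD replicate 1 (0.72), *CHAC1* without CTCFL-KD replicate 1 (0.998) or any 1 Control library, and *DDIT3* without Control replicate 3. *ATF4* itself was at 0.12 in both comparisons. *ATF3* went the other way, below every Control library in both altered groups (−0.60 in CTCFL-OE and −0.94 in CTCFL-KD), and passed neither test. The list's median log2 fold change was 0.23 in CTCFL-OE and 0.47 in CTCFL-KD. Of 28 genes of lysosomal amino acid sensing by mTORC1, 0 were DEGs in CTCFL-OE, *RRAGD* (2.32) and *LAMTOR4* (1.22) were higher in CTCFL-KD and *TFEB* (−1.29) lower, 10.7% of the list, against 23.2% of all genes in either direction. *LAMTOR4* rested on CTCFL-KD replicate 1, at 149 CPM against 36.5 and 43.3 in the other two, was at 0.30 without it and lost its call in 7 of the 9 fits. *TFEB* lost its call without Control replicate 2 or CTCFL-KD replicate 2 or 3 (−0.94 without replicate 2), and *RRAGD* kept its call whichever library was left out. The list medians were −0.12 and 0.03.

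Of 15 other amino acid and peptide carriers and partner subunits, 10 were tested, 0 were DEGs in CTCFL-OE and 6, or 60%, were higher in CTCFL-KD, against 15.3% of all genes. The peptide carrier *SLC15A2* went from 0.905 CPM in Control to 31.3 in CTCFL-KD (log2 fold change of 5.11), followed by *SLC15A3* (3.54), *SLC16A10* (2.94), *SLC15A1* (2.77), *BSG* (1.40) and *CTNS* (1.04), the last pair no DEGs without CTCFL-KD replicate 1 (0.94 and 0.95). The median of this list was 0.52 in CTCFL-OE and 1.22 in CTCFL-KD. Of 16 enzymes of glutamine, glutamate and glutathione, 14 were tested, of which 1 was a DEG in CTCFL-OE, or 7.14% against 2.07% of all genes, and 4 in CTCFL-KD, or 28.6% against 23.2%. *GGT6*, a gamma-glutamyltransferase family member, was a DEG in both comparisons (1.87, a call lost without any 1 Control library, and 4.87), *GGT7* was higher in CTCFL-KD (2.15), and those lower in CTCFL-KD included the glutathione synthesis subunit *GCLM* (−1.67). The list medians were −0.07 and −0.17.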

How the data were processed

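Counts of reads per gene were deposited by the authors for 9 libraries without normalization, and each library's own file equalled its column of the matrix. Per the study's methods and labels, reads were trimmed with Trimmomatic, mapped to GRCh38 using STAR and assigned to genes by featureCounts; the labels also name kallisto. The annotation release, strand setting and treatment of multi-mapping reads are not given in the sources used here. Total counts were 14332622 to 24490080, and a count of 0 allows up to 3 counts per library, which covers counting error only.

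Gene symbols, positions and canonical transcript lengths came from GENCODE release 44, which named 60419 of 60660 identifiers. Promoter sequences came from RefSeq (GRCh38.p14). Genes kept by filterByExpr were scaled by TMM and fitted with edgeR 4.0.16 in R 4.3.3 (glmQLFit, robust, all 9 libraries, condition only), and contrasts were tested by the quasi-likelihood F test, with p-values adjusted by Benjamini-Hochberg over all genes. DEG thresholds against Control are those of the study's methods, and that of CTCFL-KD was also used between the altered groups. Alternatives were DESeq2 1.42.0, the 2 groups alone, RLE and upper-quartile scaling, other count filters, robust estimation off, length and GC offsets, the replicate number as a block, and each library left out. The edgeR steps were tested on simulated data. Tables and plots used Python 3.11.15, pandas 2.3.3, numpy 2.4.6 and matplotlib 3.10.9.

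Members, lists and thresholds were chosen with earlier results of these data known. Members named with values are *SLC7A8*, *SLC38A4*, *SLC6A9* and *SLC1A6*, every DEG in CTCFL-OE, the 10 highest and 5 lowest CTCFL-KD DEGs with at least 1 CPM in Control or CTCFL-KD, the 10 most abundant per kb in Control, and the heavy chains with their light chains and the main glutamine and glutamate carriers. Whether replicate numbers pair the libraries was checked on 17794 genes. Between Control and CTCFL-KD, deviations from the group mean in libraries of equal number had correlations of 0.180, 0.115 and 0.113, all above 0.1, so the blocked value is given where it changes a call, although the labels name no shared batch and the correlations were 0.0861, 0.0952 and 0.0508 with length and GC trends removed. Those of Control and CTCFL-OE were −0.0108, 0.154 and −0.0482, which do not pair the libraries. Some genes of the comparison lists are counted in them but not reported here by name.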

Additional observations from a re-analysis of the deposited data

Results flagged for a closer look

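In 3 carriers the effects were of opposite sign against Control in the altered groups, with the difference between CTCFL-KD and CTCFL-OE past edgeR's test. The fitted log2 difference was −10.63 for *SLC1A6*, a value that depends on the prior count because no read was counted in CTCFL-KD, where the bound is at least 51.5-fold lower. It was −1.58 for *SLC6A12*, and −1.504 for *SLC6A15*, whose individual changes against Control did not pass the test. Nor did that of *SLC6A12* in CTCFL-KD (−0.24, adjusted p = 0.542 from edgeR) or that of *SLC1A6* in CTCFL-OE (adjusted p = 0.11). Another 3 carriers, too low to be tested, had a CPM in each CTCFL-KD library above that of every Control library. *SLC6A14*, which carries neutral and cationic amino acids, had a mean of 0.622 CPM in CTCFL-KD from counts of 3, 14 and 14, against 2, 4 and 2 in Control and 0 in each CTCFL-OE library. The cationic amino acid carrier *SLC7A3* had a mean of 0.336 CPM from counts of 1, 9 and 7, against 0 in all Control and CTCFL-OE libraries. *SLC38A8* had a mean of 0.242 CPM from counts of 3, 4 and 4, against 0, 2 and 1 in Control. DESeq2 and the fit without a low-count filter, which tested them, called *SLC6A14* and *SLC7A3* but not *SLC38A8* in CTCFL-KD. In the other direction, *SLC6A17* had counts of 9, 10 and 6 in Control and 1 in each CTCFL-KD library, and *SLC38A5* had 9, 13 and 12 against 4, 0 and 4, every CTCFL-KD library below Control in CPM. The fit without a low-count filter called *SLC6A17* lower in CTCFL-KD, and DESeq2 did not.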

How the results depend on the processing

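The 7 DEGs of CTCFL-OE became 0, 1 and 0 without Control replicate 1, 2 and 3, 2 and 1 without CTCFL-OE replicate 2 and 3, 14 without CTCFL-OE replicate 1 and 11 without CTCFL-KD replicate 1, a range of 0 to 14, while the DEGs among all genes ranged from 44 to 1184. One of those 11 was lower, *SLC6A14*. With at least 10 counts in every library, which tested 28 members, 10 DEGs remained in CTCFL-KD and 6 between CTCFL-KD and CTCFL-OE. Of all genes tested under that filter, 20.1% and 13.4% were DEGs in these comparisons. DESeq2 and the fit without a low-count filter each called 10 members in CTCFL-OE, and the remaining settings 6 to 9. Of all genes, DESeq2 called 3.03%, the fit without the filter 2.18% and the remaining settings 1.70% to 4.88%. With the replicate block, the counts were 6 in CTCFL-OE, 15 in CTCFL-KD and 11 between the altered groups. The same fit called 302 (1.70%), 4028 (22.6%) and 2963 (16.7%) of all genes. The block removed *SLC1A2* (adjusted p = 0.101) and *SLC7A2* and added *SLC7A11* in CTCFL-OE, removed *SLC6A13* in CTCFL-KD and *SLC6A4* between the altered groups, and changed no other member's call. Leaving out 1 library gave 14 to 19 DEGs in CTCFL-KD and 8 to 12 between the altered groups. Of all genes, 19.9% to 24.7% and 13.9% to 18.6% were DEGs in those fits.

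Length and GC offsets, with or without the block, made *SLC38A2* and *SLC7A2* DEGs in CTCFL-KD, and *SLC6A13* lost its call there. Without CTCFL-OE replicate 1, the 7 members gained in CTCFL-OE were *SLC1A5*, *SLC3A2*, *SLC43A1*, *SLC6A15*, *SLC6A20*, *SLC7A5* and *SLC7A11*.

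Signs turned for 4 of the 37 tested members in CTCFL-OE, 2 in CTCFL-KD and 10 between the altered groups, none a DEG in the fit with all libraries or in the setting that turned it. In CTCFL-OE, *SLC6A8* turned with length and GC offsets (−0.00074, and −0.0056 with the replicate block added). Between CTCFL-KD and CTCFL-OE, offsets turned *SLC7A6* (0.044, and 0.045 with the block) and *SLC38A9* (0.062, and 0.11 with the block), and offsets with the block turned *SLC7A11* (0.041). Leaving out 1 library, the CTCFL-OE values ranged from −0.10 to 0.32 for *SLC6A8* and from −0.021 to 0.53 for *SLC38A9*. Over all settings, *SLC36A4* ranged from −0.12 to 0.33 and *SLC43A2* from −0.19 to 0.084 in CTCFL-OE, and *SLC6A16* from −0.26 to 0.27 and *SLC36A4* from −0.22 to 0.44 in CTCFL-KD. Between the altered groups the ranges were −0.50 to 0.15 for *SLC3A2*, −0.027 to 0.39 for *SLC6A8*, −0.063 to 0.44 for *SLC7A1*, −0.25 to 0.15 for *SLC7A6*, −0.70 to 0.23 for *SLC7A11*, −0.43 to 0.0092 for *SLC38A1* and −0.28 to 0.26 for *SLC38A9*, and *SLC36A1*, *SLC36A4* and *SLC38A6* turned too. The cause of these changes was not tested. Depth limits the 22 untested members and those with under 10 counts in each Control library, *SLC1A2*, *SLC6A4* and *SLC7A10* among them.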
